A study of Zeugodacus cucurbitae with 6 samples.

Results

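The ABC transporter genes of the melon fly Zeugodacus cucurbitae were taken as every gene whose identifier starts with Abc, a letter from a to h and a digit. This rule found 4 of the 12834 genes in the deposited table, namely Abcb1a, Abcd2_0, Abcg1_1 and Abcg1_5. Transporters listed under a locus number alone were not analysed here. RNA was sequenced from whole 3rd instar larvae that had been left untreated as eggs (the non-irradiated or control group, 0 Gy) or that had hatched from eggs given 50 Gy of gamma radiation from radioactive cobalt at about 25 h of age, at 1.0 Gy per minute with free access to oxygen. Both groups were reared on the same artificial larval diet. Each group had 3 replicates, each of them 20 larvae pooled into a single poly-A library, so differences between larvae of a pool cannot be seen. The comparison asks whether larval expression of these transporters differed after irradiation of the egg.

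ABC transporters are membrane proteins that use the energy of ATP to move a substrate across a membrane. They share a nucleotide-binding domain that binds and splits ATP, and a membrane-spanning domain that differs between subfamilies and holds the substrate. In insects they are best known for removing toxins and insecticides from cells, for carrying eye pigment precursors, and for moving lipids to the cuticle. The symbols of these genes follow mammalian names. In mouse, Abcb1a encodes a P-glycoprotein, a pump of the plasma membrane that expels many unrelated drugs and toxins. In mammals, Abcd2 encodes a peroxisomal protein that brings very long chain fatty acids in for oxidation, and Abcg1 encodes an exporter that hands cholesterol to lipoproteins. The roles of the melon fly genes were not measured here.

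Library totals lay between 13192748 and 18311658 counts on genes, so that a single count stood for 0.0546 to 0.0758 CPM (the count on a scale that is the same for every library). Irradiated replicates 1 and 2 were far more alike than any other pair, with a Spearman correlation of 0.996 across tested genes against 0.93 to 0.978 in the other 14 pairs. The tests of the 4 Abc genes are therefore also given with this pair summed into 1 library. The labels give separate replicates, but separate rearing is not shown by the counts, and p-values measure only the spread between these libraries. Of the markers listed for tissues, the muscle genes Mlc1_1, Tm1_1 and Tm2_1 were abundant, at a mean FPKM of 267 to 2070 over the groups. Their log2 fold changes, irradiated over control, were -0.28 to -0.24, and 0 of the 3 had an unadjusted p under 0.05 in edgeR. Over all tested genes 21% did, so a count of 0 among 3 lies near the background. Of 2 gut markers, the amylase genes Amy-d_0 and Amyrel_1, the latter had a log2 fold change of -2.05 (adjusted p = 0.0637 in edgeR) and the former one of 0.25. Amyrel_1 met the study's threshold, as did 11.6% of all tested genes, and had groups without overlap, as did 28.4%. It was also called with DESeq2. The part of gut tissue in the values below was not tested. The nervous system marker Syt1_0 had 4 to 30 counts a library. Larval serum proteins and Malpighian tubule markers had no symbol of the lists used here.

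The 4 genes differed widely in level. FPKM scales the count by the length of the gene and by the library total, so it can be compared between genes. By mean FPKM over the 6 libraries, Abcg1_1 was highest at 75.9, followed by Abcb1a at 44.9, Abcd2_0 at 24.7 and Abcg1_5 at 2.98. Ranked by mean FPKM among all genes of the table, Abcg1_1 stood at percentile 91.3, Abcb1a at 87.6, Abcd2_0 at 81.1 and Abcg1_5 at 44.9. The order of the 4 genes was the same in each of the 6 libraries. The FPKM of Abcg1_1 exceeded that of Abcb1a by a factor of 1.17 to 2.33, depending on the library, and Abcb1a exceeded Abcd2_0 by a factor of 1.28 to 2.89. The step down from Abcd2_0 to Abcg1_5 was larger, at 3.52 to 13.4 times. Together the 4 genes summed to an FPKM of 156 ± 18.3 for control and 141 ± 6.45 for irradiated larvae (SD, n = 3 libraries per group), and took 0.0429% to 0.059% of the counts of a library.

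**Figure D1:**
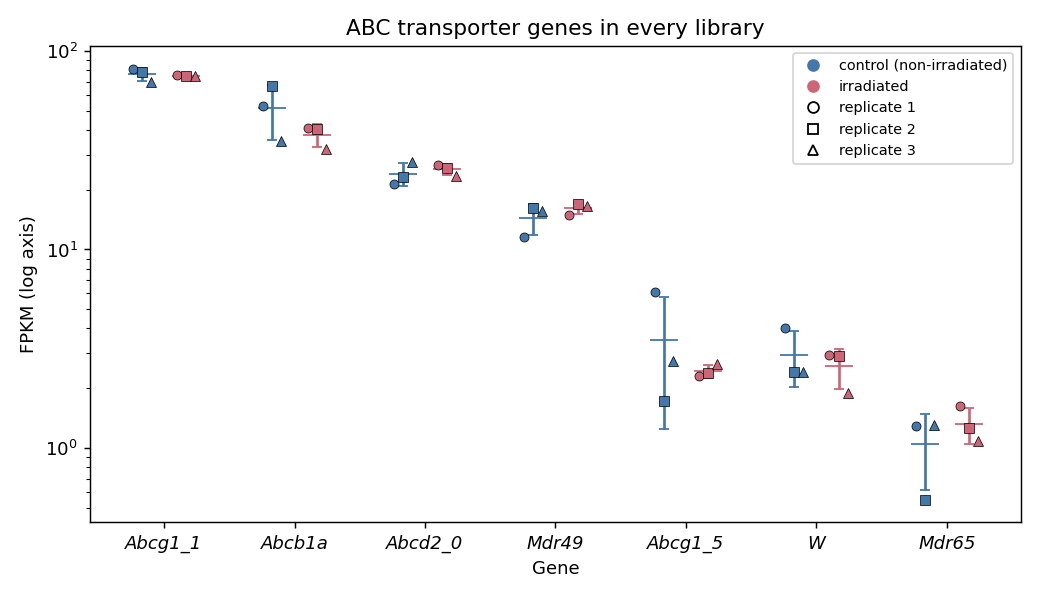
FPKM on a log axis for the 4 Abc genes and for Mdr49, Mdr65 and W, ordered by mean level, with each library as a point (blue for control, that is non-irradiated, red for irradiated, and a marker shape per replicate number) and bars for the mean ± SD of 3 libraries. Abcg1_1 sits between 69.7 and 81.5 in all libraries, whereas Abcg1_5 runs from 1.73 to 6.07 among the control libraries alone, and no gene separates the groups.

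None of the 4 genes was called as changed after irradiation. All 4 passed the filter on low counts and entered the quasi-likelihood test of edgeR, which covered 9768 genes in all. Of these tested genes, 3.74% had an adjusted p (Benjamini-Hochberg, over the whole table) under 0.05, 2.14% as higher and 1.6% as lower in irradiated larvae, against 0 of the 4 in either direction. The study's own threshold asks for FPKM above 1 in some library, fold change past 0.58 on the log2 scale and unadjusted p under 0.05. The study took its p-values from DESeq2. Applied here to the p-values of edgeR, the threshold was met by 11.6% of the tested genes and by 0 of the 4. An unadjusted p under 0.05 alone was also met by 0 of the 4, and by 21.0% of the tested genes. DESeq2, run as an alternative, also gave 0 of the 4, adjusted or not, while 1050 of 12834 genes had an adjusted p under 0.05 in it. The 12834 are all genes with a fold change in DESeq2, including any without an adjusted p. Among genes with an adjusted p the share called may thus be larger. The pools hold whole larvae, so fewer cells of a type and less RNA per cell cannot be told apart. The groups of libraries overlapped for each of the 4, while they did not overlap for 28.4% of the tested genes. With so few members, a count of 0 lies near what these backgrounds give, and it says nothing particular about the family. The median log2 fold change of the 4 was -0.22, beside -0.01 over all tested genes. Adjusted p-values ran from 0.39 to 0.979 in edgeR's test, and the intervals below show which sizes of change remained possible.

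Abcg1_1 was the steadiest of the 4 genes. Its FPKM was 81.5, 78.4 and 69.7 in the control libraries, in order of replicate number, against 75.7, 74.9 and 75.1 after irradiation. The irradiated libraries lay inside the range of the control ones. In CPM normalized by TMM, a scaling that adjusts for library composition, the gene stood at 214 ± 17.6 and 213 ± 2.2 (SD, n = 3 libraries each). The log2 fold change was -0.01 (standard error, SE, 0.12, 95% interval -0.30 to 0.28, adjusted p = 0.979 in edgeR). On the linear scale the interval ran from 0.812 to 1.22 times the control level, so changes of the size of the study's fold threshold lay outside it. With irradiated replicates 1 and 2 summed the interval widened to -0.42 to 0.40.

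Abcd2_0 also showed a narrow interval around no change. Its FPKM was 21.4, 23.2 and 27.6 for the control libraries against 26.7, 25.8 and 23.6 for the irradiated ones. The highest and the lowest values both belonged to control libraries, replicates 3 and 1. Normalized CPM was 66.9 ± 11.8 and 70.9 ± 4.94 (SD, n = 3 libraries each), a log2 fold change of 0.08 (SE 0.16, 95% interval -0.28 to 0.45, adjusted p = 0.809 in edgeR). With the pair summed the log2 fold change was 0.06 and its interval -0.42 to 0.54. Without control replicate 1 the value was -0.04, so the data give no direction for this gene.

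Abcb1a, named after the mouse P-glycoprotein, had the lower mean in irradiated larvae, but its control libraries differed more from each other than the groups did. Its counts were 3110, 4222 and 2575 in the control and 3162, 3296 and 2550 in the irradiated libraries, which is an FPKM of 52.9, 67.1 and 35.3 against 41.2, 40.4 and 32.3. Control replicate 2 was highest and irradiated replicate 3 lowest, and control replicate 3 fell below irradiated replicates 1 and 2. Within the control group, replicate 2 was 1.98 times replicate 3 in normalized CPM (95% exact binomial interval 1.89 to 2.08, which covers counting error only). Normalized CPM was 231 ± 79.3 against 171 ± 23.4 (SD, n = 3 libraries each). The log2 fold change was -0.44 (SE 0.26, 95% interval -1.05 to 0.18, unadjusted p = 0.136 and adjusted p = 0.39 in edgeR), or 0.739 times the control level with an interval from 0.483 to 1.13. A two-sided exact permutation test of the libraries gave p = 0.3, where 0.1 is the smallest p that 3 libraries against 3 allow. Control replicate 2 carried much of the difference, since the log2 fold change was -0.14 without it and -0.64 without control replicate 3. In the latter case the unadjusted p was 0.0237, but the adjusted p remained at 0.145 in edgeR's test. With irradiated replicates 1 and 2 summed the log2 fold change was -0.49, with an interval of -1.28 to 0.30 (adjusted p = 0.546 in edgeR).

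Abcg1_5 was the least expressed and the most variable of the 4 among the control libraries. Its counts were 259, 79 and 145 in the control and 128, 141 and 151 in the irradiated libraries, at an FPKM of 6.07, 1.73 and 2.74 against 2.30, 2.38 and 2.64. A high value in control replicate 1 and a low value in replicate 2 enclosed all irradiated libraries. Replicate 1 was 3.04 times replicate 2 in normalized CPM (95% exact binomial interval 2.36 to 3.96, counting error only). It was 2.00 times the next highest control library, a gap that 5.19% of tested genes reached or passed. Normalized CPM was 11.0 ± 6.28 and 7.94 ± 0.506 (SD, n = 3 libraries each), which gave -0.47 as the log2 fold change (SE 0.38, 95% interval -1.37 to 0.44, adjusted p = 0.54 in edgeR). Without control replicate 1 the log2 fold change turned to 0.09, and without control replicate 2 it was -0.76 with an unadjusted p of 0.0456 and an adjusted p of 0.228 in edgeR's test. With the pair of irradiated libraries summed it was -0.44, with an interval of -1.59 to 0.71 (adjusted p = 0.719 in edgeR). Both numbered Abcg1 genes may share reads with related genes, and how the counting divided such reads is not known here.

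**Figure D2:**
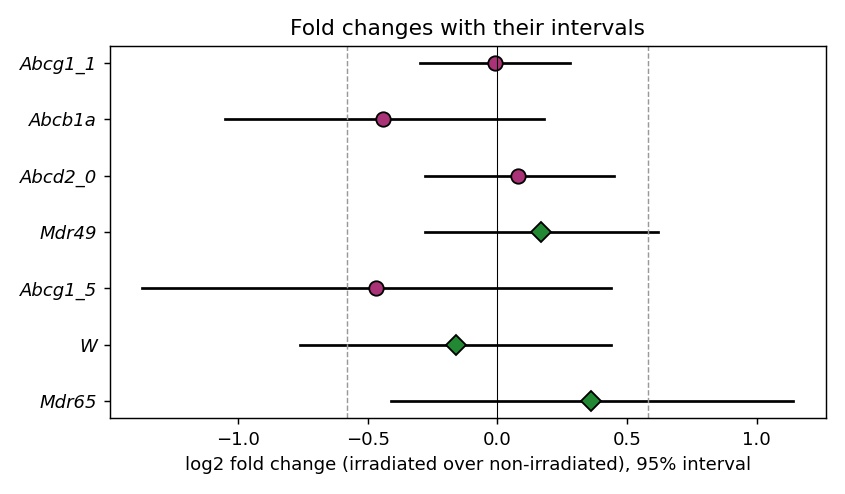
Log2 fold change of irradiated over control libraries (points, with 95% intervals from the edgeR fit as lines) for the 4 Abc genes (circles) and for Mdr49, Mdr65 and W (diamonds); dashed lines mark 0.58 in either direction. Every interval includes 0, those of Abcg1_1 and Abcd2_0 stay within the dashed lines, and that of Abcg1_5 is the widest, from -1.37 to 0.44.

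**Figure D3:**
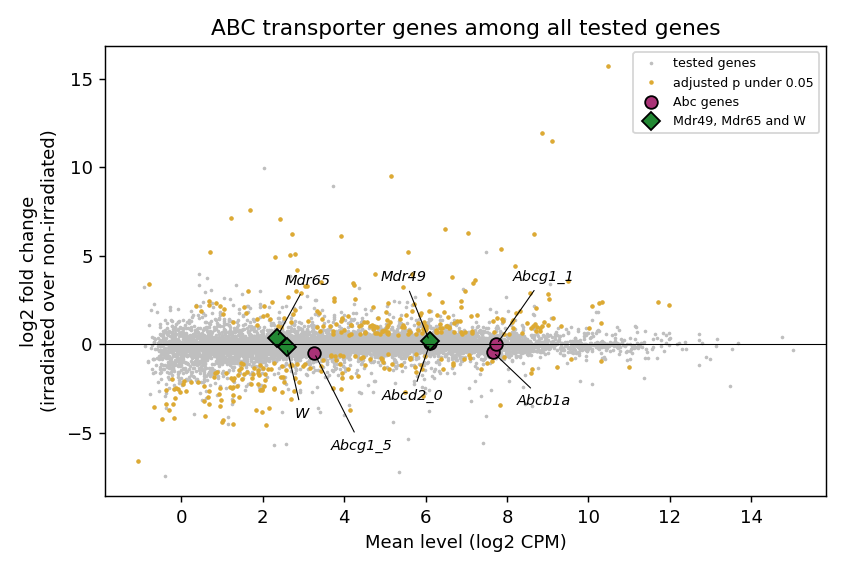
Log2 fold change against mean level (log2 CPM) for the 9768 tested genes (grey), with the 365 genes at an adjusted p under 0.05 in yellow. The Abc genes (circles) and Mdr49, Mdr65 and W (diamonds) lie within the central band, between -0.47 and 0.36, while 90% of tested genes lie between -1.05 and 0.88.

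The spread between libraries was smaller in the irradiated group for all 4 genes. The coefficient of variation of normalized CPM among the control libraries was 34.4% for Abcb1a, 17.6% for Abcd2_0, 8.23% for Abcg1_1 and 57.2% for Abcg1_5. Among the irradiated libraries it was 13.7%, 6.96%, 1.04% and 6.37% in the same order. This was not particular to the transporters, since 70.1% of tested genes had the lower coefficient in the irradiated group, with medians of 17.9% and 10.9%. The likeness of irradiated replicates 1 and 2 moves with this result, and its part in it was not tested. Within the control group, Abcg1_5 lay at percentile 93.3 of tested genes by this measure and Abcb1a at 80.5, whereas Abcg1_1 lay at 16.4. In normalized CPM, the control library that stood highest was replicate 2 for Abcb1a and Abcg1_1, replicate 3 for Abcd2_0 and replicate 1 for Abcg1_5. In FPKM, replicate 1 stood highest for Abcg1_1, at 81.5 against 78.4 in replicate 2. On either scale these genes did not share a single high library.

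**Figure D4:**
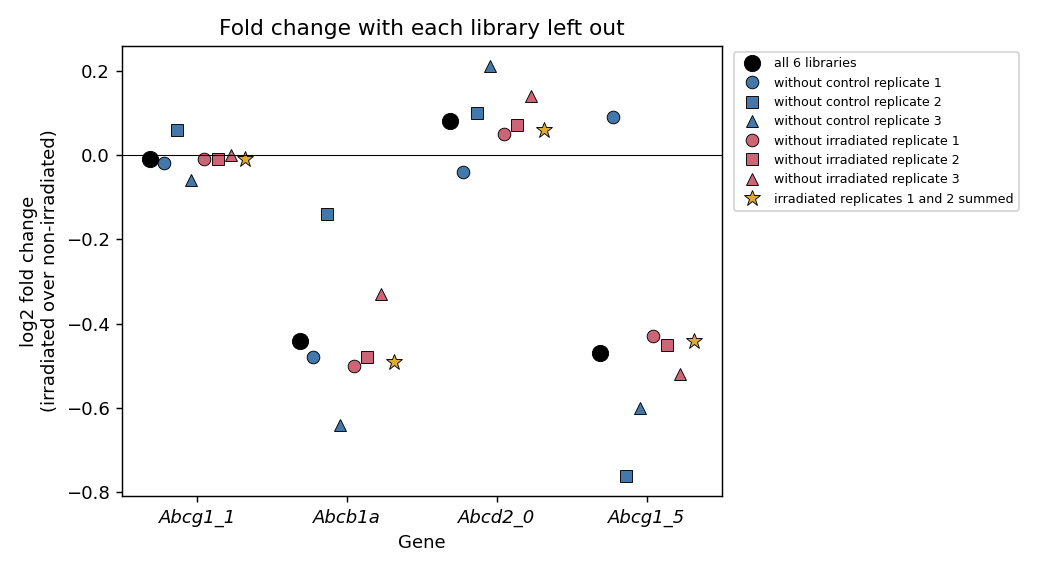
Log2 fold change of the 4 Abc genes with all 6 libraries (black), with each library left out in turn (blue for a control and red for an irradiated library, marker shape by replicate number) and with irradiated replicates 1 and 2 summed (star). Leaving out a control library moves Abcb1a between -0.64 and -0.14 and Abcg1_5 between -0.76 and 0.09, while Abcg1_1 stays between -0.06 and 0.06.

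Of the other ABC transporter symbols looked for in the table, Mdr49, Mdr65 and W were found. Mdr49 and Mdr65 are P-glycoprotein genes of the ABCB subfamily in Drosophila, where Mdr65 guards the blood-brain barrier against drugs. W matched the search for the eye pigment transporter white, but its product was not given in the sources used here. The lengths behind the FPKM values were 4460 bp for Abcb1a, 4453 bp for Mdr49 and 4174 bp for Mdr65, against 2813 bp for Abcg1_1, 2780 bp for Abcd2_0, 3235 bp for Abcg1_5 and 2145 bp for W. ABCB pumps of the P-glycoprotein type are long proteins that work alone, while ABCD and ABCG proteins are short and pair up. All 7 symbols were found in the gene table of assembly idZeuCucr1.2. Only 2 pairs of them shared a chromosome there, and the closer pair had 751 protein-coding genes in between.

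Mdr49 had an FPKM of 11.5, 16.1 and 15.6 for control against 15.0, 16.9 and 16.5 for irradiated libraries. Its log2 fold change was 0.17 (SE 0.19, 95% interval -0.28 to 0.62, adjusted p = 0.671 in edgeR). Mdr65 was near the lower end, with 71, 32 and 89 counts against 116, 96 and 80, and a log2 fold change of 0.36 (95% interval -0.41 to 1.14, adjusted p = 0.581 in edgeR). W had 114, 73 and 85 counts against 108, 114 and 72, with a log2 fold change of -0.16 (95% interval -0.76 to 0.44, adjusted p = 0.773 in edgeR). The groups overlapped for each of these 3 genes, and with irradiated replicates 1 and 2 summed the log2 fold changes were 0.17 for Mdr49, 0.30 for Mdr65 and -0.25 for W, with adjusted p from 0.755 to 0.786 in edgeR. In edgeR 0 of the 3 had an unadjusted p under 0.05. With DESeq2 0 of the 3 passed an adjusted p of 0.05, beside 1050 of 12834 genes. Over all tested genes, 21.0% had an unadjusted p under 0.05 in edgeR and 28.4% had groups that did not overlap, so these counts lie near the background too. Without control replicate 1 the log2 fold change of Mdr49 was -0.02 and that of W was 0.05, so neither had a direction that held.

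The share between related transporters was followed in each library as a description, with no test, since these ratios were chosen after the values had been seen. Abcb1a exceeded Mdr49 in FPKM in every library, by factors of 4.61, 4.18 and 2.26 in the control and 2.75, 2.40 and 1.96 in the irradiated libraries. The groups overlapped in this ratio, because control replicate 3 fell below irradiated replicates 1 and 2. Abcg1_1 exceeded Abcg1_5 by factors of 13.4, 45.3 and 25.4 for control and 32.9, 31.5 and 28.5 for irradiated libraries. The irradiated ratios thus lay within the control range.

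Genes that handle the usual substrates of these transporters were counted from lists by symbol. Of the peroxisomal genes, where ABCD proteins deliver fatty acids, Mfe2_2 and Pex2_1 were found and tested. Mfe2_2, named after an enzyme of peroxisomal fatty acid oxidation, had a log2 fold change of 0.06, and Pex2_1, named after a factor of peroxisome assembly, one of -0.12. Both had adjusted p-values above 0.7 in edgeR's test, at 0.857 and 0.743. Of the enzymes that attach glutathione or sugars to foreign compounds before export, 4 were tested (Gst1_1, Gsto1_3, Ugt and Ugt1), and 0 of the 4 passed an adjusted p of 0.05 in edgeR or in DESeq2, or the study's threshold in edgeR. Over all tested genes these shares were 3.74% in edgeR and 11.6% at the study's threshold, and DESeq2 called 1050 of 12834. A count of 0 among so few genes lies near the background. An unadjusted p under 0.05 was reached in edgeR by Gsto1_3 alone of the 4, beside 21% of all tested genes. The median log2 fold change of the 4 conjugation genes was -0.08, with values from -0.54 for Gsto1_3 to 0.42 for Ugt1.

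Among the sterol and lipid handling genes, 11 of 12 were tested, of which 1 rose and 1 fell at an adjusted p under 0.05, beside 2.14% and 1.6% of all tested genes. The study's threshold was met by 5 of the 11, beside 11.6% of all tested genes. The median log2 fold change of the 11 was -0.47, with values from -3.58 to 1.02. Numbered genes that share a symbol differed in direction for Lip1 and Lrp2 but not for Lip3. Lip3_0, Lip3_1, Lip3_2 and Lip3_8 had log2 fold changes of -1.05, -0.31, -3.58 and -1.44. Lip3_8 met the study's threshold without overlap (adjusted p = 0.0867 in edgeR), while the groups overlapped for Lip3_0 and Lip3_1. Lip1_0 was higher and Lip1_2 lower in irradiated larvae, both without overlap and past the study's threshold (adjusted p = 0.0832 and 0.0767 in edgeR). Groups without overlap were seen in 28.4% of all tested genes, so a lack of overlap alone is common here. Lrp2_3, whose symbol is that of a lipoprotein receptor relative, had an FPKM of 94.9, 88.2 and 97.8 for control and 168, 169 and 225 for irradiated libraries, without overlap. Its log2 fold change was 1.02 (SE 0.16, adjusted p = 0.0252 in edgeR). Lrp2_4, listed under the same symbol, went the other way without overlap, with a log2 fold change of -0.47 (adjusted p = 0.0982 in edgeR). Lip3_2, named after a lipase, had 222, 66 and 61 counts against 16, 9 and 10, also without overlap, and a log2 fold change of -3.58 (SE 0.65, adjusted p = 0.0381 in edgeR). Both calls were lost with irradiated replicates 1 and 2 summed, at adjusted p = 0.0917 for Lrp2_3 and 0.125 for Lip3_2 in edgeR, while the log2 fold changes were 1.09 and -3.62. Both were also lost without control replicate 2, at 0.0559 for Lrp2_3 and 0.0547 for Lip3_2, and without any of the irradiated libraries, at 0.0565 to 0.091 for Lrp2_3 and 0.115 to 0.152 for Lip3_2. The call of Lrp2_3 was lost with the replicate block as well (adjusted p = 0.0756 in edgeR), and that of Lip3_2 with limma on log2(FPKM + 1), at adjusted p = 0.0776. With at least 10 counts required in every library, Lip3_2 was not tested, since irradiated replicate 2 had 9. Without control replicate 1 the log2 fold change of Lip3_2 was -2.70, with the call kept (adjusted p = 0.0252 in edgeR).

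The genes whose pattern over the 6 libraries was most like that of each transporter were sought among 905 genes with a symbol and a mean of at least 1 CPM, by Pearson correlation of log2 CPM. For Abcb1a these were Slc30a1_0 (0.972), Phkg2_0 (0.959) and Acy1b_0 (0.948). For Abcd2_0 they were Slc25a44_0 (0.974), Smpd1_3 (0.973) and Elavl2_1 (0.967). For Abcg1_1 they were Lsd-1 (0.967), Hsp26 (0.964) and Nipsnap (0.952), where the Spearman correlation was lower, at 0.43 to 0.60. For Abcg1_5, Muc2_2 (0.974) and Orct2_0 (0.961) were among them. The 6 points share their libraries and include the nearly identical pair, and the closest of 905 genes is high by selection, so these values are a description only. Different genes stood closest to each transporter, and the log2 fold changes of the 11 genes named here ran from -0.72 for Hsp26 to 0.15 for Elavl2_1.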

How the data were processed

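The authors removed low-quality reads, aligned the rest with HISAT2, and counted reads per gene with HTSeq (version 0.6.1p2 in the submitters' processing notes; the study's methods give another version). The deposited counts are whole numbers and were not normalized. FPKM values, also deposited by the authors, were made from the count, the gene length and the library total; the lengths given here were recovered from these. Whether counting used strand is not given in the sources used here.

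Counts of 3 irradiated and 3 non-irradiated libraries were tested in R 4.3.3 with edgeR 4.0.16, by TMM, filterByExpr and the robust quasi-likelihood test over all genes, with Benjamini-Hochberg adjustment. Standard errors are the size of the log2 fold change over the square root of F. Confidence intervals of 95% use the degrees of freedom of the fit. Alternatives used DESeq2 (1.42.0), limma (3.58.1) on log2(FPKM + 1) or log2(FPKM + 0.1), other scalings and filters, a replicate block, libraries left out, and the pair summed. The scripts were tested on simulated data.

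The 4 Abc genes, the lists and the tests were chosen with earlier results of these data known. All 4 are named, as are listed genes past an adjusted p of 0.05 and, for each of the 4, the 3 symbol-named genes of highest correlation. Further genes of the lists are named outside this rule. For Abcg1_5, 1 of these is not reported here. The search for other ABC symbols also matched Mrpl2_0 and Mrpl4_2, mitochondrial ribosomal symbols, which were left out. The search for fat body markers matched a hexokinase symbol only, which was not used. Of the 12834 identifiers, 11832 were found in the gene table of assembly idZeuCucr1.2, which is not the build of the authors, so no coordinates are given. Sequences were not used here.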

Additional observations from a re-analysis of the deposited data

How the results depend on the processing

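No alternative gave any of the 4 Abc genes an adjusted p under 0.05, in 16 alternatives for each gene, and their adjusted p ranged from 0.145 to 0.997. The log2 fold change of Abcb1a stayed below 0 in all 16, between -0.64 and -0.14. That of Abcd2_0 turned below 0 only without control replicate 1 (range over libraries left out -0.04 to 0.21), and that of Abcg1_5 turned above 0 only without control replicate 1 (range -0.76 to 0.09). Abcg1_1 turned above 0 without a filter (0.01) and without control replicate 2, and was 0.00 without irradiated replicate 3 (range -0.06 to 0.06). Over all genes, 365 of 9768 were called, against 1050 of 12834 with DESeq2 and 25 of 9913 with irradiated replicates 1 and 2 summed. With the replicate block 89 of 9768 were called, and with a library left out 21 to 301 (lowest without irradiated replicate 1). Of the sterol and lipid genes, 2 of 11 were called, against 6 of 12 with DESeq2 and 0 of 11 with the pair summed. Same-numbered libraries deviated from their group means with correlations of -0.012, -0.095 and -0.155, and differently numbered ones with -0.117 to 0.133. Irradiated replicates 1 and 2 were nearly alike, so these values cannot settle whether the numbers give a pairing. With the replicate block the log2 fold changes were -0.39 for Abcb1a, 0.10 for Abcd2_0, -0.01 for Abcg1_1 and -0.32 for Abcg1_5. With 3 libraries a group, the intervals of Abcb1a and Abcg1_5 leave changes between -1.05 and 0.18 and between -1.37 and 0.44 compatible with the data.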
